A study of Mus musculus with 6 samples.

Results

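The genes described here are Wrn, which carries the mutation of this study, and 9 genes that lie close to it on mouse chromosome 8. They were taken as the non-control probes whose gene name on the array was Wrn, Purg, Gsr, Gtf2e2, Rbpms, Dctn6, Leprotl1, Nrg1, Ppp2cb or Tex15. This gave 21 probes for 10 genes, out of 41174 probes for 29742 gene names. Wrn had 4 probes, Gsr, Rbpms and Leprotl1 had 3 each, Purg and Ppp2cb had 2 each, and Gtf2e2, Dctn6, Nrg1 and Tex15 had 1 each. Each probe was followed on its own, because probes of one gene can read different transcript ends.

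Wrn encodes a member of the RecQ family of DNA helicases that also has an exonuclease domain, and it is known for its roles in DNA repair, replication and telomere upkeep. Loss of its human homologue causes Werner syndrome, a disorder of premature ageing. In mice made from targeted embryonic stem cells, the stretch of chromosome around a targeted gene is inherited together with the mutation, so its neighbours can carry alleles of the stem cell strain. The arrays read transcript abundance and no sequence, and whether alleles of the neighbours differed between the genotypes was not tested.

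The cells were primary mouse embryonic fibroblasts, connective tissue cells grown from minced embryos of day 15 by the sample labels (slightly later by the methods). The mutant cells came from Wrn Δhel/Δhel mice, homozygous for an in-frame deletion of part of the helicase domain, on a mixed genetic background of Black Swiss and another mouse strain. The strain background of the wild type embryos is not given separately in the sources used here, nor is the number of embryos behind a culture. Treated cells of both genotypes received 0.5 mM H2O2 for 1 hour and recovered for 24 hours in fresh medium. There were 6 two-colour arrays: 2 set treated (Cy5) against untreated (Cy3) wild type cells, 2 set treated (Cy5) against untreated (Cy3) mutant cells, and 2, numbered 3 and 4, set untreated wild type and untreated mutant cells directly against each other. The latter are called direct arrays and the former treatment arrays. The labels call the samples biological replicates. With 2 arrays per comparison, their number sets the precision that can be reached.

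The labels place wild type cRNA in Cy5 on the direct arrays, but the arrays themselves run the other way. Across 8057 probes of a mean log2 intensity over 6, Cy5 over Cy3 on the direct arrays correlated with mutant over wild type in the Cy3 channel of the treatment arrays, with r = 0.758. Of the 1397 such probes beyond a log2 ratio of 1 on the direct arrays, 95.6% had the same sign (r = 0.911). These correlations are across probes, which are not independent replicates, and they rest on the labels of the 4 treatment arrays. The study's own gene list for the untreated comparison also runs this way. Mutant over wild type is therefore the likely direction, and it is used below. With the labels' dyes, every sign from the direct arrays would turn, so that the 2 Rbpms probes named below would be lower by 0.84 and 0.74 on the log2 scale and Ppp2cb, Tex15 and Wrn higher by 1.33, 0.95 and 0.91. No pair of samples was repeated with exchanged dyes, and any bias of a probe toward Cy3 or Cy5 is therefore part of each log2 ratio. The difference of mutant and wild type within the Cy3 channel of the treatment arrays (untreated cells), or within their Cy5 channel (treated cells), holds the dye constant, but sets samples of different arrays against each other.

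The markers of the labelled cell type gave signal. All 10 fibroblast markers (among them Col1a1, Col3a1, Dcn and Pdgfra) stood well above background in Cy3 on all 6 arrays. So did 4 of 5 macrophage, 3 of 4 Schwann cell and neural crest, 3 of 3 skeletal muscle, 1 of 3 endothelial, 1 of 3 mast cell and 0 of 1 epithelial markers on the array. A gene was counted by its best probe. Per array, between 75.8% and 90.0% of all non-control spots stood well above background in Cy3, so these counts set the markers little apart from other probes. On the direct arrays 7 of 18 fibroblast probes were called higher in mutant cells and none lower, beside 9.83% of all probes called higher. Of these calls, those on a Col3a1, a Col1a1 and 1 Pdgfra probe rested on 1 array each. In Cy3 of the treatment arrays 0 of 15 fibroblast probes were called, with a median log2 difference of 0.30 against -0.10 over all probes. In Cy5 of treated cells 1 was called, for Dcn. The summed Cy3 intensity of 6 fibroblast probes measured on all treatment arrays was 1334 and 2182 (wild type) and 4663 and 7757 (mutant). Summed over 3 mast cell probes it was between 918 and 1141 in wild type and between 76.1 and 90.2 in mutant cells. That sum followed Mcpt8, which was lower in mutant cells by a log2 difference of -4.57 in Cy3 (limma adjusted p = 0.000186), whereas Kit (-0.60) and Cpa3 (0.90) were not called. The summed macrophage (9 probes), Schwann cell and neural crest (7 probes) and endothelial (3 probes) intensities overlapped. They were 309 to 404 in wild type against 384 to 456 in mutant cells, 192 to 275 against 181 to 206, and 54.5 to 70.2 against 50.2 to 61.1. Probe by probe, the macrophage list leaned otherwise than its sum in the same-dye comparisons. The median log2 difference of its 11 probes was -0.49 in Cy3 and -0.36 in Cy5 of treated cells, against -0.10 and -0.09 over all probes. On the direct arrays it was 0.07, and 1 probe was called higher and 1 lower. In such bulk samples fewer cells of a type and less RNA per cell cannot be told apart, and the part of cell composition in the genotype values below was not tested. Feature Extraction, Agilent's image software, had marked between 166 and 9368 spots per array as outliers, most on wild type replicate 2. Of the 126 values of the 21 probes over 6 arrays, 13 were marked and left out, 7 of them on that array, and 14 of the 21 probes had no marked spot on any array. Cy3 was well above background on all 6 arrays for 19 of the 21 probes and Cy5 for 15. Per array, between 41.5% and 69.2% of all non-control spots were well above background in Cy5.

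Among the 21 probes, 5 differed between untreated mutant and wild type cells on the direct arrays, in 4 genes. One of the 2 Ppp2cb probes, the Tex15 probe and one of the 4 Wrn probes were lower in mutant cells, and 2 of the 3 Rbpms probes were higher. The test was limma's, with Benjamini-Hochberg adjustment across the 41099 probes that had a value, and a probe was called at an adjusted p under 0.05. The members' share, 23.8%, lay near that of the whole array, where 19.6% of probes were called (9.83% higher and 9.78% lower). At an unadjusted p under 0.05 there were 9 members (42.9%), against 35.9% of all probes. The median absolute log2 difference was 0.38 over the members and 0.37 over all probes. In the Cy3 channel of the treatment arrays, limma called 0 of the 19 members with a value in both genotypes, 1 (a Ppp2cb probe) passed at an unadjusted p under 0.05 against 10.2% of all probes, and 0.534% of all probes were called. Over all probes the median log2 difference in that comparison was -0.10, and in the Cy5 comparison of treated cells -0.09, and the members' values are to be read against it. With outlier spots kept these medians were 0.03 and 0.02, and 18 (Cy3) and 19 (Cy5) of the 19 members had a higher value. Both comparisons thus depend on which spots are used. This holds also for probes without a marked spot of their own, because the arrays were normalized over the spots kept. Among these were the first probes of Ppp2cb and Gsr, the second of Rbpms, and Tex15.

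**Figure D1:**
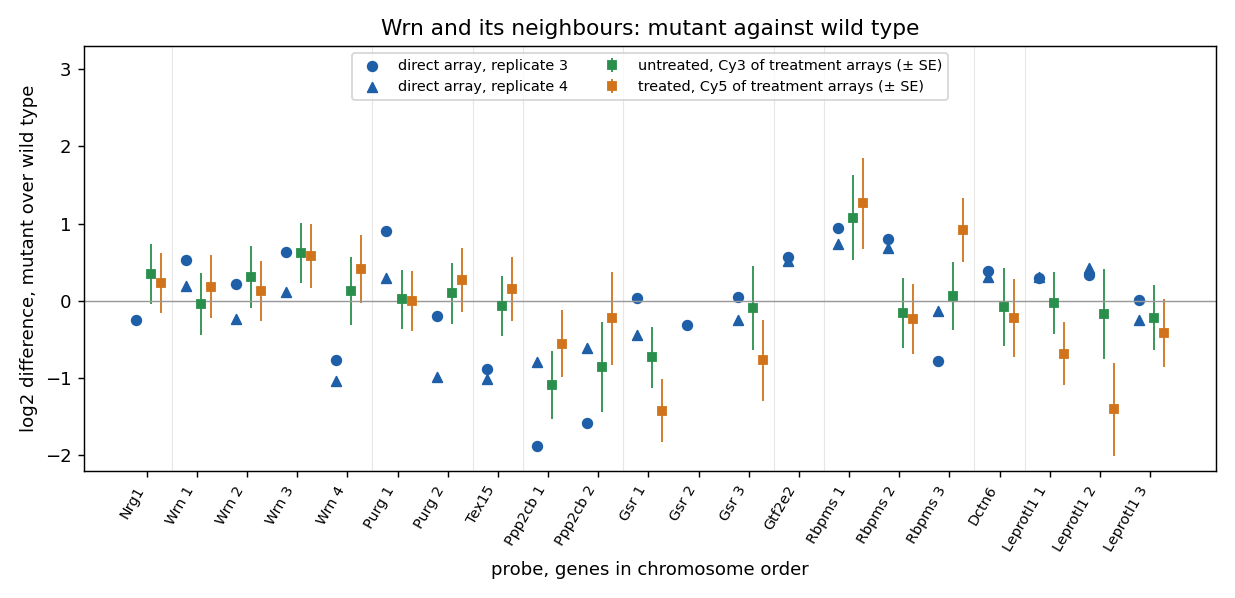
Log2 difference of mutant over wild type cells for each of the 21 probes, with genes in chromosome order along the horizontal axis. Blue points are the 2 direct arrays; green and orange squares are the Cy3 (untreated) and Cy5 (treated) comparisons of the treatment arrays with limma's standard error. Both Ppp2cb probes lie below 0 in every comparison with outlier spots left out (the second lies at 0.58 in Cy5 when they are kept), the first Rbpms probe lies above 0 in every comparison, and Tex15 and the fourth Wrn probe lie at -0.77 or lower on the direct arrays but between -0.06 and 0.41 in the same-dye comparisons.

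Wrn probes gave signal well above background in both genotypes, as did most spots of the array in Cy3. All 4 probes are assigned to the same RefSeq mRNA, and their place in that transcript relative to the deletion is not given in the files used here, so they do not check the mutation. The brightest of them, A_51_P325247, was well above background in both dyes on all 6 arrays. In Cy3, its log2 intensity in untreated wild type cells was 5.51 and 6.04 on the treatment arrays and 5.38 and 5.65 on the direct arrays, and in untreated mutant cells 5.52 and 5.95. In Cy5 it was 5.56 and 6.02 in treated wild type, 5.80 and 6.16 in treated mutant and 5.91 and 5.84 in untreated mutant cells. The genotypes overlapped in both dyes, and in Cy5 the ordered means of 5.79, 5.87 and 5.98 for treated wild type, untreated mutant and treated mutant cells lay within the spread of their replicates. On the direct arrays the probe gave log2 ratios of 0.53 and 0.19 (fitted difference 0.36, SE 0.16, limma adjusted p = 0.16).

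Wrn probes 2 and 3 also gave no call. A_52_P383506 gave 0.22 and -0.23 on the direct arrays, with opposite signs. In Cy3 it read 5.35 and 5.24 in wild type and 5.28 and 5.94 in mutant cells of the treatment arrays. A_52_P478236 gave 0.63 and 0.12 on the direct arrays (fitted difference 0.38, SE 0.22, limma adjusted p = 0.266). Its Cy3 log2 intensity was 5.52 and 5.18 in wild type and 5.91 and 6.04 in mutant cells, which did not overlap, for a difference of 0.62 (SE 0.39, limma adjusted p = 0.61). In the Cy5 channel of treated cells it read 5.54 and 4.98 in wild type and 6.11 and 5.57 in mutant cells, a difference of 0.58 (SE 0.42, limma adjusted p = 0.728). The 95% interval of the untreated difference, from -0.21 to 1.46, covers both no difference and one of more than 2-fold.

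The fourth Wrn probe, A_52_P498492, was the dimmest of the gene and the one that was called. Its direct log2 ratios were -0.77 and -1.04, a 1.87-fold lower value in mutant cells (log2 difference -0.91, SE 0.16, limma adjusted p = 0.0115). Its Cy5 signal was not well above background on any of the 6 arrays, so the channel taken as mutant in this ratio was not measured above background. In Cy3 it read 3.49 and 4.07 in wild type and 3.38 and 4.44 in mutant cells of the treatment arrays, a difference of 0.13 (SE 0.44) with overlapping groups. In untreated mutant cells, Cy5 on the direct arrays was lower than Cy3 on the treatment arrays by a mean log2 difference of -0.50. Such a difference sets different samples on different arrays against each other, so that dye, sample and array cannot be told apart. With normexp background correction in place of subtraction, the direct difference was -0.13 (limma adjusted p = 0.204), and with the log ratio of Feature Extraction it was -0.40 (adjusted p = 0.323).

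**Figure D2:**
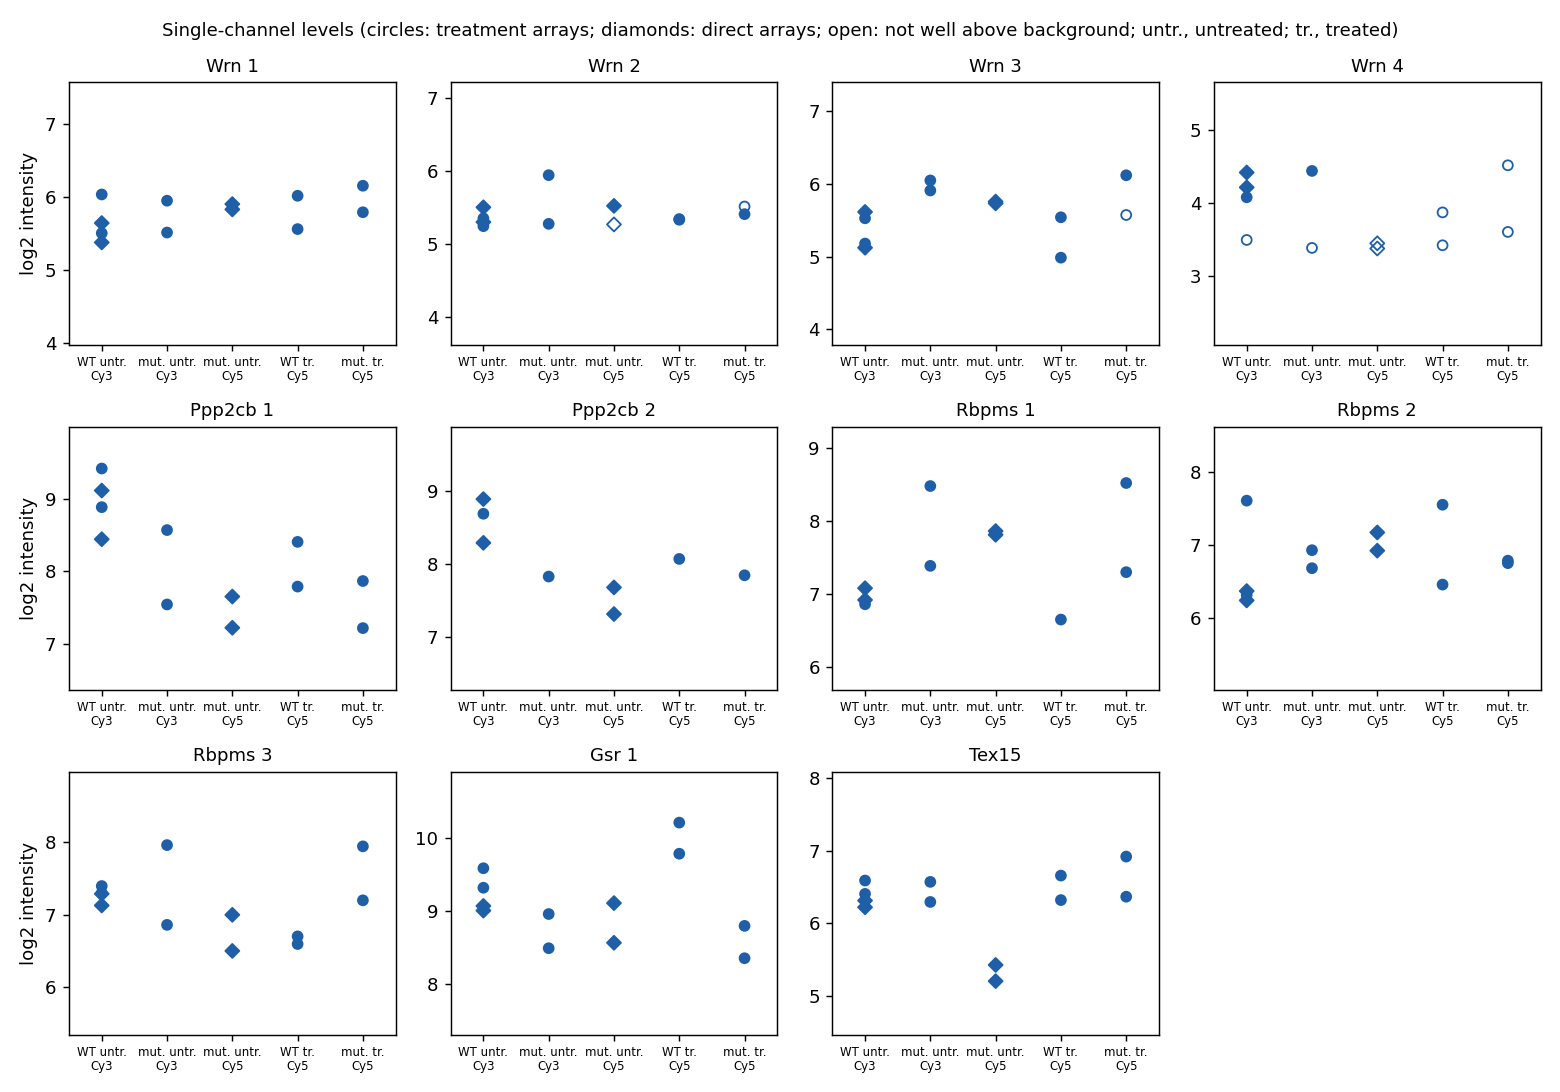
Log2 intensity of single channels for the probes of Wrn, Ppp2cb and Rbpms, the first Gsr probe and Tex15, by genotype, treatment and dye. Each point is 1 sample, and open points were not well above background. Only the same dye can be compared across columns. In Cy3, Wrn overlaps between genotypes on probes 1, 2 and 4, the first Ppp2cb probe is higher in wild type than in mutant cells in Cy3 on the treatment arrays, and Tex15 is low in Cy5 of the direct arrays alone.

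H2O2 treatment gave no call on any Wrn probe. The log2 ratios of treated over untreated wild type cells were 0.06 and -0.02 for A_51_P325247, -0.02 and 0.10 for A_52_P383506, 0.01 and -0.19 for A_52_P478236 and -0.07 and -0.21 for A_52_P498492. In mutant cells the same probes gave 0.28 and 0.21, 0.13 and -0.43, 0.21 and -0.47 and 0.22 and 0.08. The fitted responses thus lay between -0.14 and 0.04 for wild type cells and between -0.15 and 0.24 for mutant cells, with standard errors between 0.16 and 0.22. Over the 12 single channels, centred within each dye, the probes most like the brightest Wrn probe belonged to Golga5 (r = 0.969), Abhd4 (r = 0.953), Olfr59 (r = 0.951), Inpp5e (r = 0.951) and 0610012D17Rik (r = 0.950), the highest of 27040 probes compared. The channels of one array share its hybridization, and these correlations are a description.

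Ppp2cb encodes the beta form of the catalytic subunit of protein phosphatase 2A (PP2A), a major serine and threonine phosphatase, and had the largest difference among the members on the direct arrays. Probe A_51_P125535 gave direct log2 ratios of -1.88 and -0.79, a 2.52-fold lower value in mutant cells (log2 difference -1.33, SE 0.26, limma adjusted p = 0.0164). The second probe, A_51_P125538, gave -1.58 and -0.61 (log2 difference -1.09, SE 0.28, limma adjusted p = 0.0536) and missed the threshold. The call on the first was lost with the log ratio of Feature Extraction (-1.34, adjusted p = 0.0732), with median centring (-0.99, adjusted p = 0.0807), when the direct arrays were fitted alone (adjusted p = 0.0699) and at the methods' thresholds. On both probes the difference on replicate 3 was more than 2 times that on replicate 4. With outlier spots kept the second probe was called too (log2 difference -1.08, adjusted p = 0.0216), as it was without replicate 3 (-0.61, adjusted p = 0.0394) or without replicate 4 (-1.58, adjusted p = 0.00078). Those 2 fits called 43.2% and 28.9% of all probes.

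The same-dye comparison, from other arrays, gave Ppp2cb a lower value in mutant cells that was not called and depended on which spots of the arrays were kept. In Cy3 of the treatment arrays A_51_P125535 read 8.88 and 9.41 in wild type and 7.55 and 8.57 in mutant cells, so that the genotypes did not overlap. The difference was -1.09 (SE 0.44, limma adjusted p = 0.412), and without wild type replicate 1 it was -1.35 and was called (adjusted p = 0.0289). In that fit 14.5% of all probes were called and the median of all probes was -0.24. Without wild type replicate 2, mutant replicate 1 or mutant replicate 2 the difference was -0.82, -0.58 or -1.60, and no member was called. The wild type Cy3 levels of 9.11 and 8.44 on the direct arrays reached down to 8.44, below the higher of the mutant values. With these added, over the Cy3 of all 6 arrays, the log2 difference was -0.90 (limma adjusted p = 0.243). The second probe had 1 value per genotype in Cy3 of the treatment arrays, 8.69 for wild type and 7.83 for mutant cells. With outlier spots kept, the Cy3 difference was -0.64 (limma adjusted p = 0.522) for the first probe and -0.03 for the second. The first probe had no marked spot of its own, and its value changed through the normalization of the arrays. In untreated mutant cells, Cy5 on the direct arrays lay lower than Cy3 on the treatment arrays by a mean log2 difference of -0.62 for A_51_P125535 and -0.33 for A_51_P125538, where dye, sample and array again cannot be told apart.

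Rbpms encodes an RNA-binding protein with an RNA recognition motif, and its 3 probes did not move together. A_51_P350332 was 1.79-fold higher in mutant cells on the direct arrays, with log2 ratios of 0.94 and 0.73 (log2 difference 0.84, SE 0.17, limma adjusted p = 0.0211). In Cy3 it read 6.86 on the one wild type treatment array with a value and 6.92 and 7.08 on the direct arrays, against 7.39 and 8.48 in mutant cells, so that both mutant values lay above the 3 wild type values. The Cy3 difference on the treatment arrays was 1.07 (SE 0.55, limma adjusted p = 0.534), and over all 6 arrays 0.98 (adjusted p = 0.212). In treated cells, in Cy5, it read 6.65 in wild type and 7.30 and 8.52 in mutant cells, a difference of 1.26 (SE 0.59, limma adjusted p = 0.573). The call on the direct arrays was lost without either mutant treatment array (adjusted p = 0.0725), whose values enter the estimate of the spread. It was also lost with the log ratio of Feature Extraction (adjusted p = 0.0571) and when the direct arrays were fitted alone (adjusted p = 0.158).

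The second Rbpms probe, A_52_P144032, was also higher on the direct arrays, with log2 ratios of 0.80 and 0.68 (log2 difference 0.74, SE 0.16, limma adjusted p = 0.0221). In Cy3 of the treatment arrays it read 6.31 and 7.61 in wild type, a wide pair, and 6.68 and 6.93 in mutant cells, a difference of -0.16 (SE 0.46). In Cy5 of treated cells the difference was -0.24. The sign of both turned with outlier spots kept, to 0.31 in Cy3 and 0.24 in Cy5, and over the Cy3 of all 6 arrays the difference was 0.17 (limma adjusted p = 0.845). The call on the direct arrays was lost without any one of the 4 treatment arrays (adjusted p = 0.062 without either mutant array and 0.0556 without either wild type array), and with the log ratio of Feature Extraction (0.0555), median centring (0.0721) or the direct arrays fitted alone (0.204). The third probe, A_52_P662203, gave -0.78 and -0.13 on the direct arrays (log2 difference -0.46, SE 0.20, limma adjusted p = 0.156) and 0.06 (SE 0.43) in Cy3. The 3 probes carry 3 different accessions, and the files used here do not say which transcripts each one reads.

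Tex15, needed for meiotic recombination in male germ cells, was the member with the smallest adjusted p. Its probe gave direct log2 ratios of -0.88 and -1.01, a 1.93-fold lower value in mutant cells (log2 difference -0.95, SE 0.16, limma adjusted p = 0.0100). In Cy3 of the treatment arrays it read 6.59 and 6.41 in wild type and 6.29 and 6.57 in mutant cells, overlapping groups that differed by -0.06 (SE 0.39), or by 0.28 with outlier spots kept. Over the Cy3 of all 6 arrays the log2 difference was 0.05 (limma adjusted p = 0.935). The Cy5 channel of untreated mutant cells on the direct arrays, at 5.43 and 5.21, lay below the same genotype's Cy3 by a mean log2 difference of -1.11, the widest such gap among the 21 probes, between different samples and arrays. The treated cells, also read in Cy5, stood at 6.66 and 6.32 in wild type and 6.37 and 6.92 in mutant cells, above the direct arrays' Cy5.

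Purg, the gene next to Wrn, encodes a nucleic acid-binding protein of the Pur family. Its 2 probes had opposite signs on the direct arrays. A_51_P321531 gave 0.91 and 0.30 (log2 difference 0.60, SE 0.20, limma adjusted p = 0.0737) and A_52_P134317 gave -0.20 and -0.98 (log2 difference -0.59, SE 0.22, limma adjusted p = 0.107). The first was called without replicate 4 (0.91, adjusted p = 0.00575) and the second without replicate 3 (-0.98, adjusted p = 0.00359), in fits that called 28.9% and 43.2% of all probes, so each rests on 1 array. In Cy3 of the treatment arrays the first read 5.76 and 5.65 in wild type and 5.63 and 5.82 in mutant cells, and the second 5.65 and 5.24 against 5.38 and 5.71. Both pairs of groups overlapped, with differences of 0.02 and 0.10 (SE 0.38 and 0.39).

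Gtf2e2 encodes the beta subunit of the general transcription factor TFIIE, which acts in the assembly of RNA polymerase II at promoters. Its probe gave 0.57 and 0.52 on the direct arrays (log2 difference 0.54, SE 0.16, limma adjusted p = 0.0643). It was called with outlier spots kept (0.56, adjusted p = 0.0371) and with normexp correction (0.45, adjusted p = 0.0273). Both wild type treatment arrays had marked its spot as an outlier, so the same-dye comparison had no value with outlier spots left out. With them kept, the difference was -0.06 (SE 0.39) in Cy3 and -0.22 (SE 0.43) in Cy5. Over the Cy3 of all 6 arrays, with the wild type values of the direct arrays, it was 0.45 (SE 0.36, limma adjusted p = 0.538).

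The remaining members had no call between untreated genotypes. Dctn6, a subunit of the dynein activator dynactin, gave 0.39 and 0.31. The 3 probes of Leprotl1, a transmembrane protein related to the leptin receptor overlapping transcript, had fitted direct differences of 0.30, 0.38 and -0.11, and the 3 probes of Gsr -0.20, -0.31 and -0.10. Nrg1, a growth factor ligand of the ErbB3 and ErbB4 receptors, had 1 value (-0.25), and its Cy5 signal was not well above background on any array. Limma's adjusted p was between 0.181 and 0.732 for these 8 probes.

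H2O2 treatment gave no call among the members in either genotype. In wild type cells limma called 0 of the 19 members with a value, 5 passed at an unadjusted p under 0.05 (26.3%, against 20% of all probes), and 0.258% of all probes were called (0.119% higher and 0.139% lower). The 5 were 2 probes of Gsr and 1 each of Leprotl1, Ppp2cb and Rbpms. In mutant cells it called 0 of 21 members and 0% of all probes (0 of 41052), with 1 member, Nrg1, and 12% of all probes at an unadjusted p under 0.05. The median absolute log2 ratio of the members was 0.23 in wild type and 0.15 in mutant cells, against 0.24 and 0.19 over all probes.

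**Figure D3:**
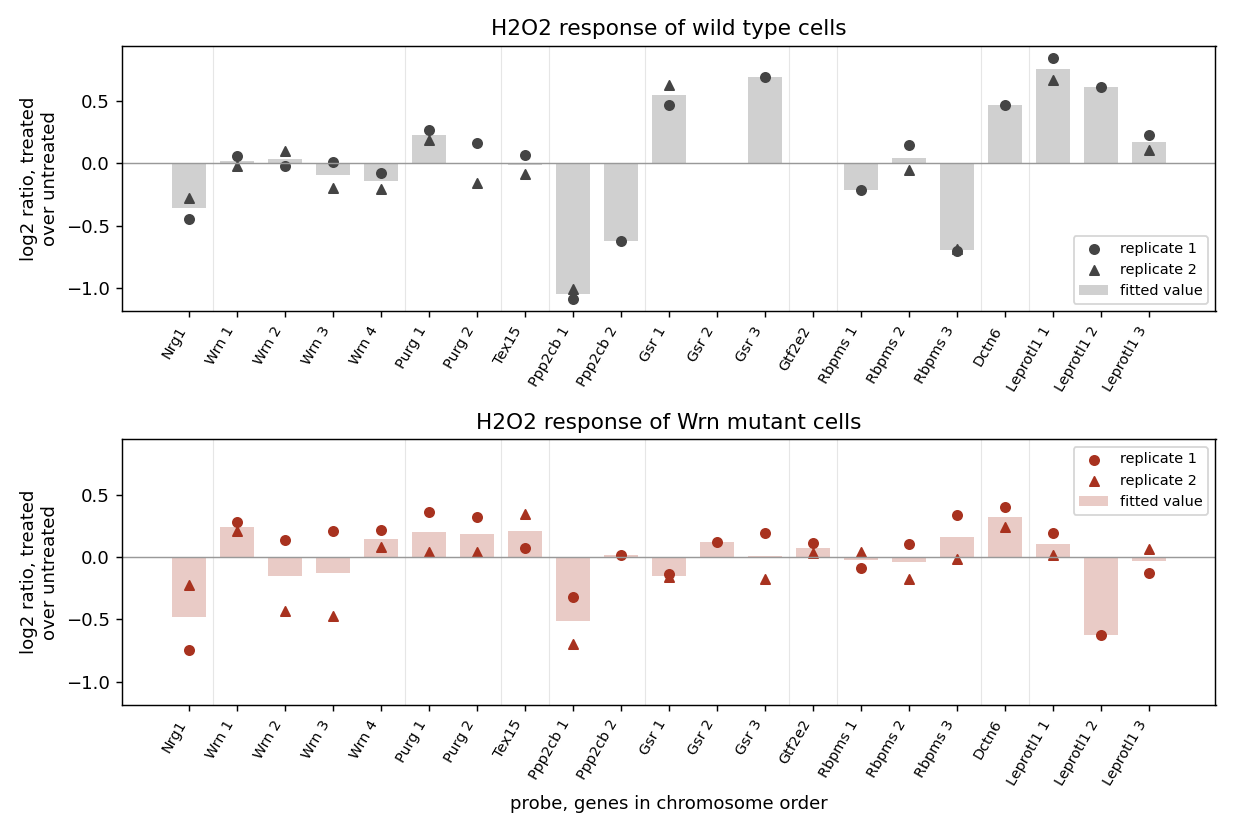
Log2 ratio of H2O2-treated over untreated cells for each of the 21 probes, in wild type cells (upper panel) and Wrn mutant cells (lower panel). Points are the 2 arrays and bars the fitted value; missing points were marked as outlier spots. Gsr 1, Gsr 3, Dctn6 and Leprotl1 1 and 2 lie above 0.4 and Ppp2cb 1 near -1 in wild type cells, and no bar has an adjusted p under 0.05.

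Gsr encodes glutathione reductase, which regenerates reduced glutathione with NADPH. In wild type cells A_51_P359625 gave log2 ratios of 0.47 and 0.63 (fitted value 0.55, SE 0.17, limma adjusted p = 0.151), and A_52_P91604 gave 0.69 on 1 array (SE 0.26, adjusted p = 0.22) and 0.71 on the other, where its spot was marked as an outlier. In mutant cells they gave -0.14 and -0.16, and 0.19 and -0.17. Gsr probe 2, A_52_P346738, had outlier marks on both wild type arrays, where its log2 ratios were 0.18 and 0.16. The difference of the responses, mutant minus wild type, was -0.70 (SE 0.25, limma adjusted p = 0.811) for A_51_P359625 and -0.68 (SE 0.32, adjusted p = 0.849) for A_52_P91604. Limma called 0 of 19 members and 0% of all probes for this difference, with 4 members (1 probe of Gsr, 2 of Leprotl1 and 1 of Rbpms) and 5.94% of all probes at an unadjusted p under 0.05.

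In treated cells, A_51_P359625 of Gsr read 9.78 and 10.21 in wild type and 8.35 and 8.79 in mutant cells in Cy5, without overlap. The log2 difference was -1.42 (SE 0.41, limma adjusted p = 0.267), and without wild type replicate 1 it was -1.64 and was called (adjusted p = 0.0229). In that fit 8.63% of all probes were called and the median of all probes was -0.23, and no member was called when one of the other treatment arrays was left out. With outlier spots kept the difference was -1.02 (limma adjusted p = 0.538). In Cy3 the same probe read 9.32 and 9.58 in untreated wild type and 8.49 and 8.96 in untreated mutant cells, a difference of -0.73 (SE 0.40, adjusted p = 0.557), or -0.31 with outlier spots kept (adjusted p = 0.758). The direct arrays gave 0.04 and -0.44. Gsr probe 3, A_52_P91604, gave -0.77 (SE 0.52) in treated and -0.09 (SE 0.54) in untreated cells. In Cy5, limma called 0 of 19 members, 3 (1 probe each of Gsr, Leprotl1 and Rbpms) passed at an unadjusted p under 0.05 against 9% of all probes, and 0.368% of all probes were called.

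Leprotl1 gave the smallest adjusted p of a member for the wild type response. A_51_P482940 gave 0.85 and 0.67 (fitted value 0.76, SE 0.15, limma adjusted p = 0.0676), and 0.20 and 0.02 in mutant cells, and the difference of the responses was -0.65 (SE 0.22, limma adjusted p = 0.801). A_52_P395220 gave 0.61 in wild type and -0.62 in mutant cells, on 1 array each, and 0.46 and -0.78 on the arrays where its spot was marked as an outlier. The difference of its responses was -1.24 (SE 0.35, limma adjusted p = 0.769), and in treated cells it read 9.49 in wild type and 8.09 in mutant cells, again on 1 array each (difference -1.41, SE 0.60, adjusted p = 0.539, and -0.75 with outlier spots kept). The third probe, A_52_P496655, gave 0.23 and 0.11 in wild type and -0.13 and 0.07 in mutant cells. With all arrays kept, A_51_P482940 was called in wild type cells with normexp correction, where 5.56% of all probes were called. It was called there too with the log ratio of Feature Extraction, beside 1.43% of all probes. Without either direct array, A_51_P482940 was called in wild type cells (adjusted p = 0.0034), and so were A_51_P359625 (0.0139) and A_52_P91604 (0.0422) of Gsr. Each of those fits called 22.8% of all probes in wild type cells, against 0.258% with all arrays.

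Ppp2cb had the lowest log2 ratio among the members in treated wild type cells. A_51_P125535 gave -1.09 and -1.01 (fitted value -1.05, SE 0.26, limma adjusted p = 0.0933), and was called without either direct array (adjusted p = 0.000985, beside 22.8% of all probes). With median centring the fitted value was -0.51 (adjusted p = 0.392). In mutant cells it gave -0.32 and -0.70 (fitted value -0.51, SE 0.26, adjusted p = 0.491), and was called there, at the same fitted value, without either direct array, where 9.91% of all probes were called. The difference of the responses was 0.54 (SE 0.37, adjusted p = 0.919), with a 95% interval from -0.35 to 1.42. The untreated wild type samples enter both this response and the Cy3 genotype difference of -1.09, so these values are not independent. In treated cells, in Cy5, the probe read 7.79 and 8.41 in wild type and 7.22 and 7.87 in mutant cells, which overlapped (difference -0.55, SE 0.43, adjusted p = 0.747). With outlier spots kept this difference was -0.08, and that of the second probe turned from -0.22 to 0.58. The log2 ratio of treated over untreated cells for the second probe, A_51_P125538, was -0.62 in wild type and 0.02 in mutant cells, on 1 array each. On the arrays where its spot was marked as an outlier it was -0.88 and -0.28.

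The third Rbpms probe, A_52_P662203, gave -0.70 and -0.69 in treated wild type cells (fitted value -0.70, SE 0.20, limma adjusted p = 0.125, and 0.00631 without either direct array, beside 22.8% of all probes). In mutant cells it gave 0.34 and -0.02, and the difference of the responses was 0.86 (SE 0.29, limma adjusted p = 0.801). In Cy5 of treated cells it read 6.60 and 6.70 in wild type and 7.19 and 7.94 in mutant cells, without overlap (difference 0.92, SE 0.42, adjusted p = 0.553). The second Rbpms probe, A_52_P144032, gave 0.14 and -0.06 in treated wild type cells. The first, A_51_P350332, gave -0.21 there on 1 array and -0.62 on the other, where its spot was marked as an outlier. Nrg1 gave -0.74 and -0.22 in mutant cells (fitted value -0.48, SE 0.19, limma adjusted p = 0.41) and -0.44 and -0.28 in wild type cells. Its Cy5 signal, that of the treated cells, was not well above background on any of these arrays. Dctn6 gave 0.47 in wild type cells on 1 array (0.45 with the outlier spot of the other) and 0.40 and 0.24 in mutant cells.

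Calls were about as frequent around Wrn as elsewhere on the array. Of the 163 probes of the 50 genes on either side of Wrn, in the gene order of the RefSeq table, 35 were called on the direct arrays, which is 21.5% (exact 95% interval 15.4 to 28.6%, for counting error alone) beside 19.6% of all probes. Without the members it was 31 of 146 (21.2%). With 20 genes on either side the share was 21.3%, and with 100 genes 19.0%. In Cy3 of the treatment arrays 1 of 160 flanking probes was called (0.625%, against 0.534% of all probes). It belonged to Sfrp1, a secreted inhibitor of Wnt signalling and the 47th gene from Wrn on the side of Nrg1, which was lower in mutant cells by -3.79 in Cy3, -4.02 in Cy5 of treated cells (limma adjusted p = 0.000363 and 0.00248) and -2.44 on the direct arrays (adjusted p = 0.00081). Nearer to Wrn on that side, both probes of Mak16, a ribosome assembly factor and the 4th gene, were lower on the direct arrays by -1.13 and -1.04 (adjusted p = 0.0166 and 0.0239).

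**Figure D4:**
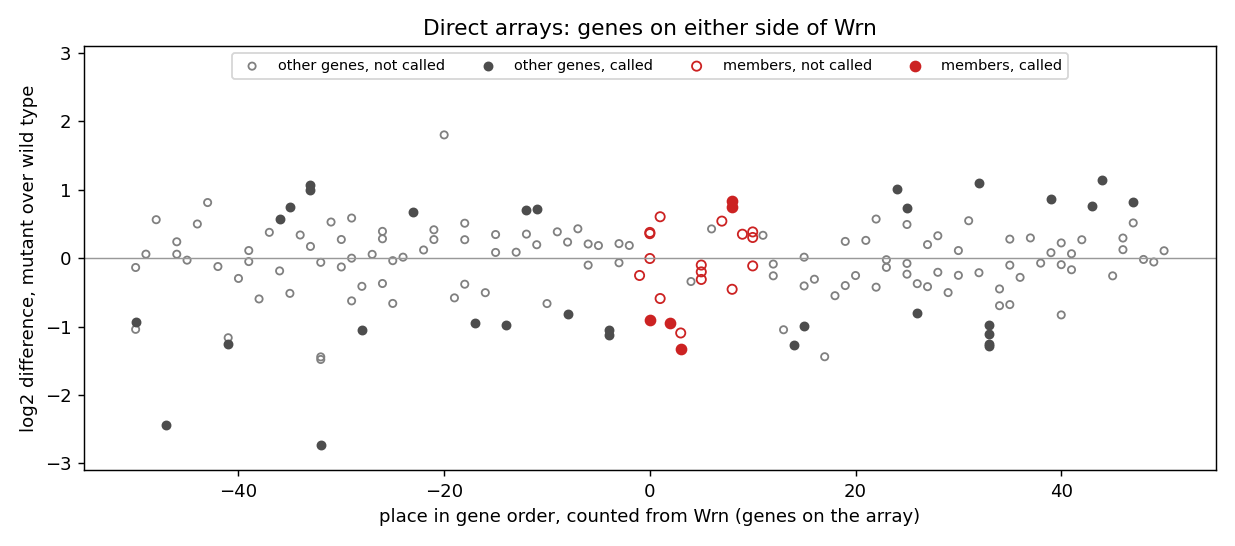
Log2 difference of mutant over wild type cells on the direct arrays for probes of the 50 genes on either side of Wrn, by their place in the gene order counted from Wrn at 0. Filled points were called at an adjusted p under 0.05; red points are the 10 genes described here. Called probes, 35 of 163, lie on both sides of 0 and along the whole window, with Sfrp1 and Fgfr1 lowest.

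Functional partners of the neighbours were called as often as other probes. Of 107 partner probes 21 were called on the direct arrays, which is 19.6%, the same share as over all probes. Of 24 probes for other PP2A subunits, 1 was higher and 6 were lower in mutant cells, with a median log2 difference of -0.17 against 0.00 over all probes. The 6 included the alpha catalytic subunit Ppp2ca (-1.27, adjusted p = 0.0197), the scaffold subunit Ppp2r1b (-1.27, adjusted p = 0.00607) and the regulatory subunit Ppp2r5e (-1.20, adjusted p = 0.00733). Ppp2r3a, a further regulatory subunit, had one probe at -2.35 and the other at 0.83, both called. The former was also the one partner probe called in treated wild type cells (-2.96, adjusted p = 0.0479). Of 18 probes of a list of glutathione enzymes, thioredoxin reductases, pentose phosphate enzymes and a transporter, 4 were higher and 2 lower (median 0.15). Both subunits of glutamate-cysteine ligase, which starts glutathione synthesis, were lower, Gclm by -1.37 (limma adjusted p = 0.0121) and Gclc by -0.60 (adjusted p = 0.0337). Higher were Gpx4 (0.82, adjusted p = 0.0151) and Pgd of the pentose phosphate pathway (0.95, adjusted p = 0.0172). So were both called probes of the mitochondrial thioredoxin reductase Txnrd2 (1.19 and 0.77, adjusted p = 0.0212 and 0.0424).

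Of 17 dynactin probes, 3 were higher and 1 lower, with Dctn3 at 1.34 (limma adjusted p = 0.00296) and the capping subunit Capza1 at -1.33 on 1 array (adjusted p = 0.0375). Of 20 probes for neuregulins and their receptors, 2 were higher, Erbb2 (0.97, adjusted p = 0.0345) and Erbb3 (0.58, adjusted p = 0.0396). Of 19 probes of general transcription factors, 1 was lower, Gtf2f2 of TFIIF (-1.19, adjusted p = 0.00798). Of 5 probes of the other RecQ helicases, 1 was lower, Recql (-0.81, adjusted p = 0.0351). None of the 4 probes for genes related to Purg, Rbpms and Leprotl1 was called. In Cy3, in Cy5 of treated cells, in treated mutant cells and for the difference of the responses, no partner probe was called. No test of a list was made.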

How the data were processed

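Per the file headers, the authors extracted each spot's mean and background intensity in Cy3 and Cy5 with Feature Extraction A.7.5.1 (the methods name another version), together with quality flags, which are scores without a unit, and a log10 ratio of Cy5 over Cy3. The labels name total RNA and the methods cytoplasmic RNA. The deposited series table holds the authors' log2 ratios, background subtracted and loess normalized, and correlated with the ratios computed here at r of at least 0.9995 per array.

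Here the background median was subtracted from the mean intensity and ratios were loess normalized with limma 3.58.1 in R 4.3.3 (data.table version 1.17.8). Control spots and those marked as outliers were dropped and saturated ones used, and a probe's spots were averaged. A single lmFit and eBayes fit held the 6 arrays, with 1 coefficient per comparison, as the methods use limma. Single channels were scaled with Aquantile over all 6 arrays together, and their main tests used the 4 treatment arrays. Tests were two-sided, with Benjamini-Hochberg adjustment over all probes. The procedure was also run on simulated data without dye or array effects. The changes planted there were larger than any called among the members, so that run does not bear on changes of the members' size. Gene order came from a RefSeq table (GRCm38.p6), and no coordinates are given because the files name no build. Sequences of the members were not used here. Members and lists were chosen with earlier results of these data known. All members are named. Flanking and partner genes are named only where called, and not every called one is named. That choice did not follow the size of change alone. Plots used Python 3.11.15, pandas 2.3.3 and matplotlib 3.10.9.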

Additional observations from a re-analysis of the deposited data

How the results depend on the processing

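Among the 21 probes, the number called in the wild type response was 0, but 1 with normexp correction, 1 with the log ratio of Feature Extraction, 7 when the 2 arrays were fitted alone, and between 0 and 5 when 1 array was left out (5 without either direct array). In the mutant response it was 0, and between 0 and 1 with 1 array left out. On the direct arrays it was 5, but 0 at the methods' thresholds (adjusted p under 0.005 and a mean log2 intensity over 6), 1 with the Feature Extraction ratio, 3 with median centring, 0 when those arrays were fitted alone, and between 3 and 8 with 1 array left out. Its split was 2 higher and 3 lower, against 3 and 2 with normexp, 1 and 2 with median centring, and 0 and 1 with the Feature Extraction ratio. In Cy3 and in Cy5 of the treatment arrays it was 0, and between 0 and 1 with 1 array left out. Where a group kept 1 array, its spread was taken from the other groups. Each count is to be read against the share of all probes called in the same fit. In the wild type response it was 0.258%, but 5.56% with normexp, 1.43% with the Feature Extraction ratio and 25.1% with its 2 arrays alone. On the direct arrays it was 19.6%, but 15.1% with normexp, 8.16% with the Feature Extraction ratio and 10.6% with median centring. It was 1.76% there at the methods' thresholds and 5% with those arrays alone. With the labels' dyes on the direct arrays, the called values turned to 1.33 (Ppp2cb), -0.84 and -0.74 (Rbpms), 0.91 (Wrn) and 0.95 (Tex15). Every direct value changes sign there by construction. These 5 turns are the called values that turned in the count below, and uncalled direct values add to its sign changes. With 20 genes on either side of Wrn, the share of flanking probes called was 0 in Cy3 and 0 in Cy5. Over the 625 values of single probes under the alternatives, 529 kept direction and side of the threshold, 39 that were called in neither fit changed sign, 29 passed the threshold newly, 23 lost it and 5 called values turned.

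Over all probes, counts of calls depended strongly on the fit: 104 in the wild type response (0 to 10115), 0 in the mutant response (0 to 4380), 8061 on the direct arrays (725 to 16160), 215 in Cy3 (0 to 4640), 148 in Cy5 (0 to 2755) and 0 for the difference of the responses (0 to 513). The highest counts came from fits on the arrays of a comparison alone or without 1 array. The replicate numbers 1 and 2 are shared by wild type and mutant treatment arrays, but same-numbered arrays deviated together with r of -0.05 (ratios), 0.18 (Cy3) and 0.08 (Cy5), and nothing says that they are paired. With the replicate block, 0 members were called in the 5 comparisons that use these arrays, and calls over all probes were 0, 0, 15 (Cy3), 98 (Cy5) and 0. A slide or scan block was not run, because each array lay on its own slide and no scan date was given. Cy3 over all 6 arrays was chosen after seeing the data and called 0 members and 1.70% of all probes.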
